A study of Mus musculus with 60 samples.

Results

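Calf muscle of 6-month-old Dmdmdx/Largemyd double mutants was compared with that of C57Bl/6 mice, the normal controls of the series. The arrays were chosen by lineage and age alone and number 10 of 60, with 5 mice in each group and 1 array per mouse. The other arrays are of the single mutants Dmdmdx and Largemyd, and of all 4 lineages at 21 days and 3 months. All 10 mice are labelled male and untreated. The muscles had been frozen and powdered whole, so each array measured every cell type of the calf at once. Values are log2 expression values from Affymetrix Mouse Gene 1.0 ST arrays, and a difference of 1 on this scale is a change of 2-fold.

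Dystrophin links the actin cytoskeleton of the muscle fibre to dystroglycan and the sarcoglycans in the membrane, and dystroglycan binds laminin outside the fibre through sugar chains. Dmdmdx mice lack dystrophin, and Largemyd mice lack the enzyme activity that extends those sugar chains, so the double mutant has both ends of the linkage impaired. Muscle without this linkage is known for repeated cycles of fibre damage, invasion by macrophages, regeneration and scarring.

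The labels and the arrays did not agree on sex in the control group. Xist, the RNA that coats the inactive X, read 10.81, 10.78, 5.54, 10.58 and 10.67 in C57Bl/6 replicates 1 to 5, and 5.31, 5.51, 5.44, 5.31 and 5.17 in the double mutants. The mean of the Y-linked genes Eif2s3y, Uty and Kdm5d was 4.89 to 5.17 in C57Bl/6 replicates 1, 2, 4 and 5, and 8.53 to 8.86 in the other 6 arrays. Markers of bone marrow also separated single arrays from their groups. Their mean over 16 genes was 10.94 in C57Bl/6 replicate 3 and 10.87 in double mutant replicate 4, 8.96 in C57Bl/6 replicate 1, and 6.84 to 7.26 in the other 7. Double mutant replicate 4 also had the highest mean of lymph node markers, 8.45 against 6.72 to 7.86 elsewhere. Defining markers of muscle fibres were high in all 10 arrays, with a mean over 15 genes of 13.23 to 13.32 in C57Bl/6 and 12.95 to 13.20 in the double mutant. The only C57Bl/6 array with low Xist is thus the one with the highest marrow markers, and every double mutant has low Xist. Results were therefore also computed with a term for high Xist, which draws on all 11 such arrays of the series, and without these arrays. The latter leaves that 1 control, the array with the most marrow signal, so its p-values take the spread from the other groups and assume that this array varies like them.

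**Figure D1:**
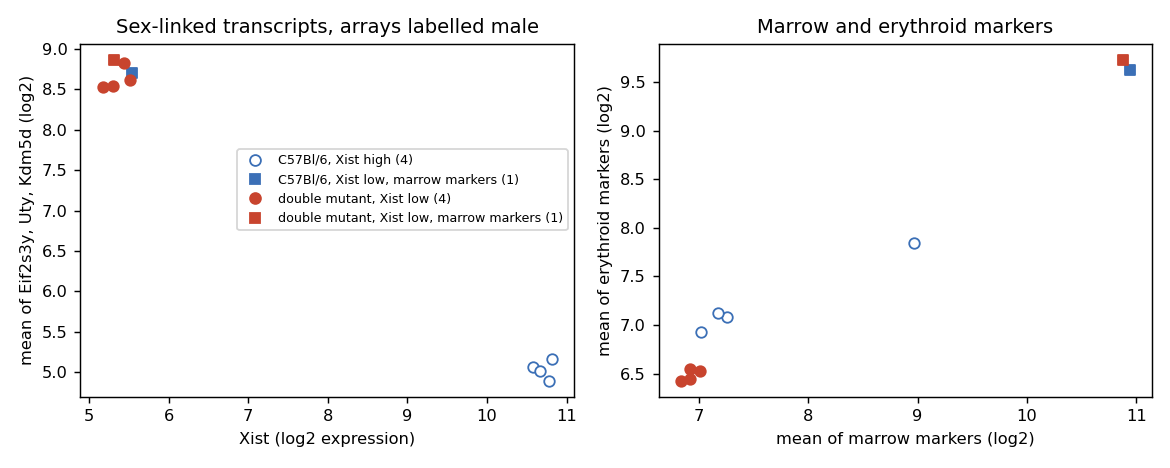
Left, expression of Xist against the mean of 3 Y-linked genes, and right, the mean of 16 marrow markers against that of 11 erythroid markers, 1 point per array on log2 scales. Of 5 C57Bl/6 arrays 4 have Xist above 10.5, and the remaining C57Bl/6 array and double mutant replicate 4 have marrow means above 10.8.

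Of 19938 genes tested with limma, 29.8% differed between the double mutant and C57Bl/6 at 6 months with a Benjamini-Hochberg adjusted p under 0.05, and are called below. The 5945 called genes comprised 2862 that were higher in the double mutant (14.4% of genes tested) and 3083 that were lower (15.5%). These 2 shares stand beside the counts of each gene list in this comparison below. The 5 and 5 arrays did not overlap for 25.4% of genes, called or not. The change was 2-fold or more for 661 called genes, 512 of them higher and 149 lower. Large changes were thus mostly rises, whereas called genes in all were divided almost evenly. The median log2 fold change over all genes was -0.06 as deposited and -0.12 with array medians subtracted, and the share of called genes that were higher was then 35.8% in place of 48.1%. With the term for high Xist, 4914 of the 5945 genes were called in the same direction, and 635 of the 661. Without the arrays with high Xist 1639 and 418 were.

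Sex-linked and predicted genes were left out of the genes ranked here, as were genes whose arrays overlap. Among the rest the largest rise was in Ccl8, a chemokine that attracts monocytes. Its 5 values were 6.36, 6.05, 6.50, 6.60 and 6.32 in C57Bl/6 and 9.96, 10.34, 10.19, 11.19 and 10.70 in the double mutant. The groups were far apart, by a log2 fold change of 4.11 ± 0.38 (standard error, as after each fold change below; limma adjusted p = 1.1e-12), or 17.3-fold. In whole muscle more cells of a type and more RNA per cell cannot be told apart. Ms4a6d, Ms4a7 and Ms4a4a, which encode related membrane proteins found on macrophages, rose together by 3.59 ± 0.28, 3.25 ± 0.24 and 3.16. Ms4a6d read 6.68, 6.73, 6.90, 6.73 and 6.55 in C57Bl/6 and 10.23, 10.82, 9.61, 10.44 and 10.41 in the double mutant. Mmp12, the elastase of macrophages, rose by 3.53 ± 0.35, and C3ar1, the receptor of the complement fragment C3a, by 3.29 ± 0.26. In C57Bl/6 Mmp12 read 6.70, 6.61, 6.06, 6.37 and 6.72, and in the double mutant 9.19, 10.66, 9.47, 10.16 and 10.63. Serpina3n and Timp1, secreted inhibitors of serine proteases and of metalloproteinases, rose by 3.18 ± 0.34 and 3.35 ± 0.27. Atp6v0d2, a proton pump subunit of osteoclasts and macrophages, rose by 3.21 ± 0.48. Its C57Bl/6 values were spread, at 7.97, 4.90, 8.88, 5.64 and 5.50, and the highest belonged to the arrays with the most marrow signal. Against the 1 control with low Xist its difference was 0.91 (adjusted p = 0.53), whereas without the arrays with markers of other tissue it was called. Glipr1 rose by 3.22. Akr1e1, an aldo-keto reductase, rose by 3.22 from values of 4.92 to 5.42 in C57Bl/6 to 8.17 to 8.59 in the double mutant. In Largemyd the same gene read 8.22, 8.04 and 8.42 in 3 mice and 4.80 and 5.29 in the other 2, and in Dmdmdx 8.35 to 8.59.

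C7, a terminal component of complement, differed from the other large rises. Its values were 6.46, 7.04, 9.60, 6.96 and 6.50 in C57Bl/6 and 10.85, 9.65, 11.39, 10.78 and 11.09 in the double mutant. The C57Bl/6 array at 9.60 is the one with low Xist, and it lies next to the lowest double mutant. The fold change was 3.44 ± 0.69 (adjusted p = 7.6e-05), but 0.81 (adjusted p = 0.052) with the Xist term and 1.16 (adjusted p = 0.16) without the arrays with high Xist. Across the series the difference of C7 between arrays with high and low Xist was -3.29 (adjusted p = 1.3e-18). The single mutants at 6 months divided the same way, with C7 at 6.83 in the Dmdmdx array with high Xist and 9.71 to 10.56 in the other 4, and at 7.38 to 7.67 in the 3 such Largemyd arrays and 10.91 and 11.19 in the other 2. At 3 months C7 was 0.43 ± 0.69 higher in the double mutant (adjusted p = 0.71).

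**Figure D2:**
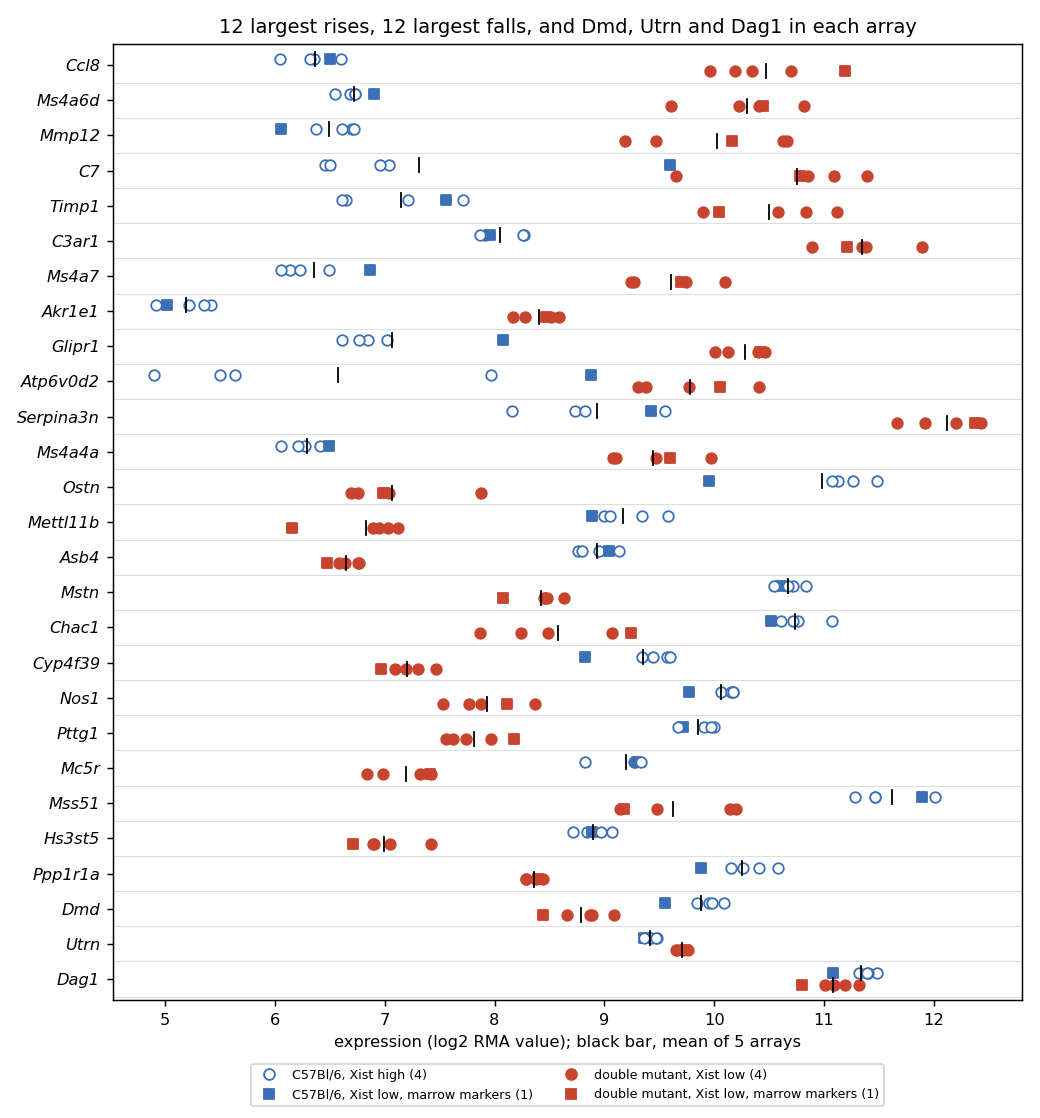
Log2 expression in each of the 10 arrays for the 12 largest rises and 12 largest falls among the genes ranked, and for Dmd, Utrn and Dag1, with white circles for arrays with high Xist, squares for arrays with marrow markers and a bar for the mean of 5. The blue and red points separate in every gene except Dag1, and C7 has 1 C57Bl/6 array at 9.60 beside the double mutants.

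Among the genes ranked, the largest fall was in Ostn, which encodes musclin, a peptide hormone secreted by muscle. C57Bl/6 arrays read 11.26, 11.13, 9.95, 11.07 and 11.48 and double mutants 6.69, 6.76, 7.88, 6.98 and 7.04, so that Ostn fell by 3.90 ± 0.26 on the log2 scale (adjusted p = 7.3e-17), or 14.96-fold. Dmdmdx and Largemyd were low as well, at 7.00 to 7.57 and 7.09 to 8.65. Mstn, which encodes myostatin, the inhibitor of muscle growth, fell by 2.26 ± 0.30. Its values were 10.72, 10.84, 10.61, 10.67 and 10.54 in C57Bl/6 and 8.48, 8.45, 8.63, 8.08 and 8.46 in the double mutant, with narrow groups far apart. Nos1, the neuronal nitric oxide synthase that is anchored to the dystrophin complex, fell by 2.14 ± 0.21. It read 10.06, 10.17, 9.77, 10.15 and 10.17 in C57Bl/6 and 7.88, 7.53, 8.37, 8.11 and 7.77 in the double mutant. Also lower were Mss51, a mitochondrial protein of fast fibres (-1.99 ± 0.33), and Ppp1r1a, an inhibitor of protein phosphatase 1 (-1.90). Chac1, an enzyme that degrades glutathione, fell by 2.15 ± 0.37, but was -1.93 (adjusted p = 0.073) without the arrays with high Xist. Pttg1 (securin, an inhibitor of sister chromatid separation) fell by 2.04 ± 0.13. The remaining falls were in Mettl11b, a protein methyltransferase (-2.34), Asb4 (-2.29), Cyp4f39, a cytochrome P450 (-2.15), Mc5r, a melanocortin receptor (-2.004), and Hs3st5, a heparan sulfate sulfotransferase (-1.91). Of these 24 rises and falls, 23 were called with the Xist term, all but C7, and 21 without the arrays with high Xist, all but C7, Atp6v0d2 and Chac1. All 24 were called without the arrays with markers of other tissue.

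The promoters of 4 genes whose change is described here are printed, from RefSeq on GRCm38.p6, from 250 bases before to 50 after the start. Ccl8 is of the chemokine list and Ms4a7 of the macrophage list, and both rose. They are shown with GAGGAA on either strand in capitals, the core of the sites bound by PU.1, a transcription factor of macrophages. Ms4a7 has 2 entries, and the one with a match is shown.
Ccl8 (chr11:82114935-82115234, plus strand): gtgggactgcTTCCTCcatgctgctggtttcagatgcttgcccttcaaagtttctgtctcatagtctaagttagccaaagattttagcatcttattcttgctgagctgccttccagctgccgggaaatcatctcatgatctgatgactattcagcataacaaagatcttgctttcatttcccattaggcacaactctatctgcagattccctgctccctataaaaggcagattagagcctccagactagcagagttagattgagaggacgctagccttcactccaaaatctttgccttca
Ms4a7 (chr19:11336097-11336396, minus strand): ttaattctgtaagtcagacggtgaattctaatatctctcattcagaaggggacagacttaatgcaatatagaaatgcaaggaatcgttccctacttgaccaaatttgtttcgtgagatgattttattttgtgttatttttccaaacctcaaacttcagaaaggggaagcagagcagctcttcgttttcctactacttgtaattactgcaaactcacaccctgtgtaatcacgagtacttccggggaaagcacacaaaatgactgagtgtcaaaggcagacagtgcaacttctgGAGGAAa
Each held 1 match. The motif was found at 15 of the 27 genes of the macrophage list with an entry (55.6%), a list that does not hold Ccl8, and at 31.3% of all 27025 genes in the table. Genes of regenerating fibres, described below, held it in 42.1% of cases. A gene was counted if any of its entries had a match. A match is a description of these letters and not a site in use.

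Macrophage genes rose as a group. Of 37 measured markers of macrophages and monocytes 33 were called higher and none lower, with a median log2 fold change of 1.82 beside -0.06 over all genes. Gpnmb, a glycoprotein of phagocytes, rose by 3.03 ± 0.28 with Ms4a6d, Ms4a7 and Atp6v0d2. The mean of the list was 7.63 to 8.67 in C57Bl/6 and 9.33 to 10.08 in the double mutant, without overlap, and the highest array of each group was the one with marrow markers. With the Xist term 33 were called higher (median 1.53), and without the arrays with high Xist 16 (median 1.22). Without the 13 arrays of the series with markers of other tissue, which include these 2 with marrow markers, the list held 33 called genes.

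Complement and chemokine genes moved in the same direction. In the complement list 16 of 20 genes were called higher and none lower (median 1.49). C1qb, part of the complex that starts the classical pathway, rose by 2.37 ± 0.17, and Vsig4, a complement receptor of resident macrophages, by 2.90 ± 0.32. Among 35 chemokines and cytokines 16 were called higher and 1 lower (median 0.71), and Ccl6, Ccl9 and Ccl3, ligands for receptors on monocytes, rose by 2.56, 2.44 and 2.26. Genes of antigen presentation rose too, 10 of 15 with none lower (median 0.55), led by H2-Aa at 1.87 ± 0.29, Cd74 at 1.86, H2-Ab1 at 1.86 and H2-Eb1 at 1.71, all of the class II pathway. Of 22 interferon-induced genes 10 were called higher and none lower (median 0.48), with Trim30a at 1.18 ± 0.26, Rtp4 at 0.98, Oasl2 at 0.89 and Oas2 at 0.86. Oasl2 was 0.78 (adjusted p = 0.054) without double mutant replicate 2. No gene of these last 2 lists was called without the arrays with high Xist, although their medians were then 0.49 and 0.63, and with the Xist term 10 and 9 were called. Of 19 T and natural killer cell markers none was called in either direction (median 0.06). Of 12 mast cell and eosinophil markers 7 were called higher (median 0.37), among them Ccr3 at 1.19 ± 0.33, Mcpt4 at 1.13 ± 0.25, Cpa3 at 1.12 ± 0.29 and Tpsb2 at 0.70 ± 0.19. Without the arrays with high Xist 2 were called higher and 2 lower (median 0.31), and the array with marrow markers had the highest mean of this list in each group, 7.40 in C57Bl/6 and 7.82 in the double mutant. The part of marrow cells in this was not tested.

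Markers of tissues next to muscle were measured beside these groups. No marrow marker of 16 and no erythroid marker of 11 was called (medians -0.53 and -0.44). Without the 13 arrays of the series with markers of other tissue, 1 marrow marker was called higher and 8 lower. In that fit 9 erythroid markers were lower. With C57Bl/6 replicate 1 left out as well, 2 marrow markers were called higher and 2 lower, and 3 erythroid markers were lower. None of 13 lymph node and none of 11 skin markers was called. The part of marrow or blood cells in the rises of immune genes was not tested. Without those 13 arrays 16 complement, 18 chemokine, 9 antigen presentation and 9 interferon-induced genes were called higher.

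**Figure D3:**
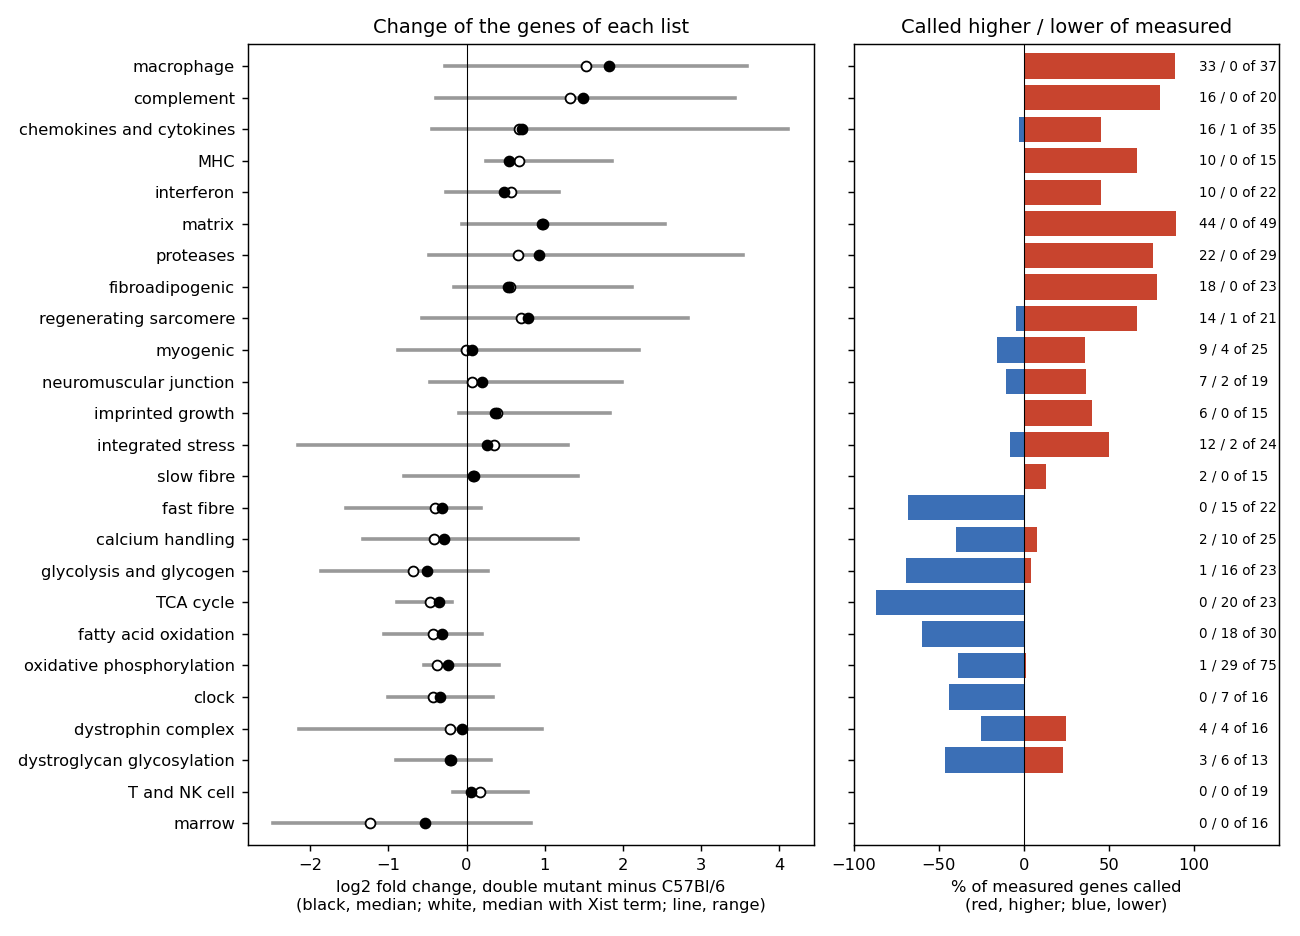
Left, the median (black), the median with the Xist term (white) and the range (line) of the log2 fold change of each gene list, and right, the percentage of its measured genes called higher (red) or lower (blue), with counts. Macrophage, complement and matrix genes are mostly called higher, and fast fibre, glycolysis and TCA cycle genes mostly lower.

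Scar and connective tissue genes rose broadly. Of 49 collagens and other matrix genes 44 were called higher and none lower (median 0.98, range -0.06 to 2.53). Array means of this list were 9.30 to 9.57 in C57Bl/6 and 10.08 to 10.60 in the double mutant. Sfrp1, a secreted regulator of Wnt signalling, rose by 2.53 ± 0.23, Postn, the matrix protein periostin, by 2.28 ± 0.22, Col8a1 by 1.89 ± 0.20 and Vcan, the proteoglycan versican, by 1.84 ± 0.16. Postn values were 10.34, 9.46, 10.30, 9.45 and 9.09 in C57Bl/6 and 12.23, 12.79, 11.82, 11.17 and 12.07 in the double mutant. The lowest double mutant was replicate 4, which carries marrow markers, and it still lay above every C57Bl/6 array. The matrix count was 44 with the Xist term and 34 without the arrays with high Xist, and its median 0.97 and 0.98. Of 23 markers of fibro-adipogenic progenitors and fibroblasts 18 were called higher and none lower (median 0.52), among them Cilp (2.11 ± 0.21), Cxcl14 (1.51 ± 0.15), Pdgfra (1.15 ± 0.11), the receptor that marks these cells, and Lrp1 (1.10 ± 0.10). Of 29 proteases and inhibitors 22 were called higher, with Ctss, a lysosomal cysteine protease, at 3.09 ± 0.29. In the list of TGF-beta family ligands, receptors and targets, 14 of 30 were called higher and 4 lower (median 0.19). The lower share was no larger than the 15.5% of all genes tested. Tgfbi, Fstl1 and Fst, the myostatin antagonist follistatin, rose by 1.27 ± 0.11, 1.24 ± 0.16 and 0.93 ± 0.16. Of 12 tendon markers 5 were called higher and none lower, led by Prg4 (lubricin) at 2.87 ± 0.24, with Tnmd at 1.24 ± 0.34, Comp at 1.12 ± 0.23 and Egr1 at 0.83 ± 0.19. Of 21 adipocyte genes 3 were called, beside 29.8% of all genes tested. Cebpa (0.80 ± 0.18) and Pparg (0.42 ± 0.17, adjusted p = 0.049), transcription factors of fat cells, were higher and Acacb, an acetyl-CoA carboxylase also expressed in muscle, lower (-0.85 ± 0.15). Pparg lost its call when any of 7 single arrays was left out, and was 0.31 (adjusted p = 0.21) without double mutant replicate 4, which has the highest mean of adipocyte markers in its group.

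Regeneration was measured next. Genes of regenerating fibres were called higher in 14 of 21 cases and lower in 1 (median 0.79). Myh3, the embryonic myosin heavy chain, read 6.96, 6.8, 6.48, 7.21 and 6.8 in C57Bl/6 and 9.45, 10.63, 9.45, 8.93 and 9.78 in the double mutant. The groups did not overlap, and Myh3 rose by 2.80 ± 0.36. Ankrd1, a stress-induced protein of the sarcomere, rose by 2.83 ± 0.25, Tnnt2, the cardiac troponin T of immature fibres, by 1.90 ± 0.30 and Myl4, an embryonic myosin light chain, by 1.84 ± 0.15. Of 25 myogenic factors and satellite cell genes 9 were called higher and 4 lower (median 0.06), beside 14.4% and 15.5% of all genes tested. The lower share was thus near that of all genes. Mymk, the membrane protein that fuses myoblasts, rose by 2.20 ± 0.33, from 7.53, 7.92, 7.79, 7.79 and 7.67 to 9.69, 10.77, 9.94, 9.24 and 10.04. Myog, the differentiation factor myogenin, rose by 1.35 ± 0.27, Hgf, a growth factor that activates satellite cells, by 1.54 ± 0.15 and Ncam1 by 1.39 ± 0.20. In the neuromuscular junction and denervation list 7 of 19 were called higher and 2 lower (median 0.20), with Runx1 at 1.99 ± 0.17 and Chrna1, the acetylcholine receptor alpha subunit, at 1.28 ± 0.24. Of 15 imprinted growth genes 6 were called higher and none lower (median 0.36). Igf2, a fetal growth factor, rose by 1.83 ± 0.21, Peg3 by 1.38 ± 0.17 and Zim1 by 0.92 ± 0.19. Mest, whose groups overlapped, rose by 1.07 ± 0.35 (adjusted p = 0.015), but was 0.90 (adjusted p = 0.098) with the Xist term and 0.75 (adjusted p = 0.11) without double mutant replicate 2, its highest array.

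Promoters of a gene of immature fibres and of Mstn are shown for this contrast of a rise and a fall within muscle. Capitals mark E-boxes, written CANNTG, the motif of myogenic factors, and TATAAA, on either strand.
Myh3 (chr11:67078050-67078349, plus strand): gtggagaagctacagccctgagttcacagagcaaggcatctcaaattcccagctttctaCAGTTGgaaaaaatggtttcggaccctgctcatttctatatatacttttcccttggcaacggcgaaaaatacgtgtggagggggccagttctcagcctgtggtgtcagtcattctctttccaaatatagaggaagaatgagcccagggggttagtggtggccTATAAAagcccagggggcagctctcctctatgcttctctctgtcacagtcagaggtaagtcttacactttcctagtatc
Mstn (chr1:53061390-53061689, plus strand): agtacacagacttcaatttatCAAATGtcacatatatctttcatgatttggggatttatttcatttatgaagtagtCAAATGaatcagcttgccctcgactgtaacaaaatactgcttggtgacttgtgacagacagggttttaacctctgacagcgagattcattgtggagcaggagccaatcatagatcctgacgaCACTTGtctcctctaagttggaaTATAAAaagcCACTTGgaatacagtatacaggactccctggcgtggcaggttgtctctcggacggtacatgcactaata
Myh3 held 1 E-box and Mstn 4, and each held 1 TATAAA. An E-box was present at 75.0% of all genes in the table and at 15 of 19 genes of the regenerating list with an entry (78.9%), and TATAAA at 15.7% and 31.6%. In the macrophage list the shares were 92.6% for the E-box, higher than in the regenerating list, and 18.5% for TATAAA.

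Genes of the mature fibre fell. Of 22 fast fibre genes 15 were called lower and none higher (median -0.31). Array means of this list were 12.89 to 13.02 in C57Bl/6 and 12.39 to 12.65 in the double mutant. The largest falls were in Mylk4 and Mylk2, kinases of the myosin light chain (-1.54 ± 0.38 and -1.25 ± 0.26), Myoz3, a Z-disc protein of fast fibres (-0.88 ± 0.28), and Gpd1, a glycerol phosphate dehydrogenase (-0.69 ± 0.22). Of the 15 defining fibre markers 7 were called lower as well, led by Pygm, muscle glycogen phosphorylase, at -0.51 and followed by Actn3 at -0.45 ± 0.08, Tnni2 at -0.35 ± 0.10 and Myh4 at -0.35 ± 0.09. Of 15 slow fibre genes 2 were called, beside 29.8% of all genes tested. Both were higher, Sln, the sarcolipin that inhibits the calcium pump, at 1.43 ± 0.19 and Tpm3, the slow tropomyosin, at 0.75 ± 0.12. Genes of excitation-contraction coupling were called lower in 10 of 25 cases and higher in 2 (median -0.29), with Mrln, a small peptide inhibitor of the calcium pump, at -1.32 ± 0.24, Stac3, an adaptor of the calcium channel, at -1.01 ± 0.18 and Cacna1s, the channel itself, at -0.83 ± 0.16. Double mutant replicate 4 had the lowest mean of the fast, slow and calcium lists in its group.

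Energy metabolism fell by smaller steps across many genes. Of 23 genes of the TCA cycle and linked pathways 20 were called lower and none higher (median -0.35), with Bckdhb at -0.89 ± 0.18, Pcx, pyruvate carboxylase, at -0.86 ± 0.23, Suclg2 at -0.73 ± 0.10 and Dbt at -0.72 ± 0.12. For Pcx the difference with the Xist term was -0.42 (adjusted p = 0.21). Of 23 genes of glycolysis and glycogen 16 were called lower and 1 higher (median -0.50). Pfkfb3, which makes the activator of phosphofructokinase, fell by 1.87 ± 0.27. Fbp2, the muscle fructose bisphosphatase, was -1.57 ± 0.22, and Phkg1 and Phka1, subunits of phosphorylase kinase, were -1.30 ± 0.22 and -1.08 ± 0.22. Phkg1 read 11.80, 11.88, 11.65, 11.75 and 11.79 in C57Bl/6 and 10.71, 10.34, 10.63, 10.21 and 10.50 in the double mutant, a separation of about 1 log2 unit. Of 30 genes of fatty acid uptake and oxidation 18 were called lower and none higher (median -0.31). Ucp3 was -1.05 ± 0.25, Ppara, a nuclear receptor for fatty acids, -0.78 ± 0.19, Acot2 -0.64 ± 0.23 and Ppargc1a, the coactivator of mitochondrial biogenesis, -0.94 ± 0.33. Ppargc1a was -0.86 (adjusted p = 0.061) without double mutant replicate 4 and -0.83 (adjusted p = 0.068) without C57Bl/6 replicate 5, and Acot2 was -0.57 to -0.64 (adjusted p = 0.050 to 0.086) without any of 6 single arrays. In oxidative phosphorylation 29 of 75 genes were called lower and 1 higher (median -0.24). The changes here were small, and Ndufa12, Ndufa9, Ndufa8 and Ndufb8, subunits of complex I, were -0.54, -0.48, -0.48 and -0.48. Ndufb8 lost its call when any of 7 single arrays was left out (adjusted p = 0.053 to 0.11). With the Xist term 48 of the 75 were called lower, and without the arrays with high Xist 4. The same 2 settings gave 19 and 2 called lower in the TCA list, 18 and 7 in glycolysis, 21 and 3 in fatty acid oxidation, and 16 and 3 in the fast fibre list. Without the arrays with high Xist the medians were -0.23 for oxidative phosphorylation, -0.29 for the TCA list, -0.40 for glycolysis, -0.29 for fatty acid oxidation and -0.26 for fast fibres, beside -0.24, -0.35, -0.50, -0.31 and -0.31 with all arrays.

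**Figure D4:**
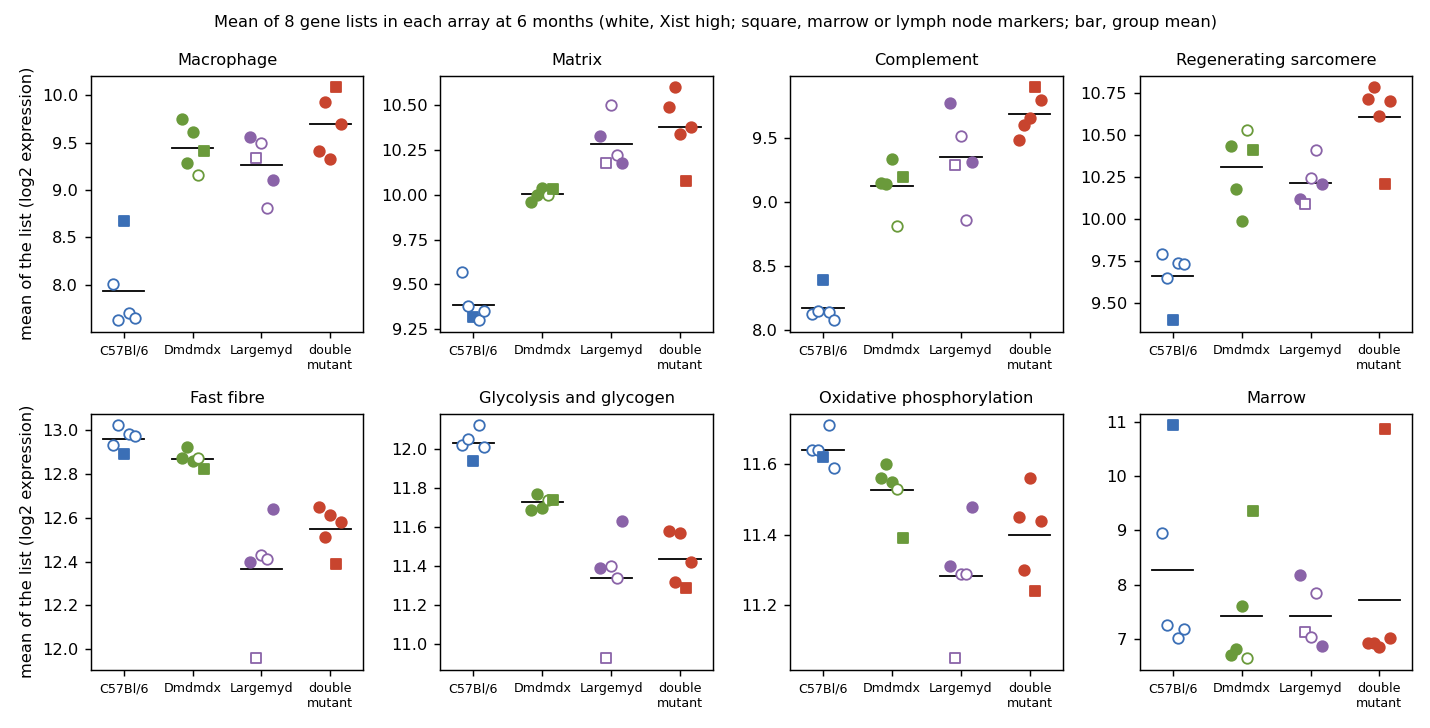
Mean log2 expression of 8 gene lists in each array at 6 months by lineage, with white symbols for high Xist, squares for arrays with markers of marrow or lymph node, and bars for group means. Macrophage, matrix, complement and regenerating sarcomere means are higher in the double mutant than in every C57Bl/6 array, and fast fibre and glycolysis means lower.

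The dystrophin complex itself was divided. Dmd, which encodes dystrophin, read 9.84, 9.95, 9.55, 9.98 and 10.09 in C57Bl/6 and 8.87, 8.66, 9.09, 8.44 and 8.89 in the double mutant, and fell by 1.09 ± 0.18 (adjusted p = 1.9e-06). The mdx allele is a point mutation, so transcript remains, and the array does not report the protein. Utrn, the autosomal homologue of dystrophin, read 9.48, 9.42, 9.36, 9.47 and 9.36 against 9.76, 9.65, 9.72, 9.73 and 9.66 and rose by 0.29 ± 0.07 (adjusted p = 0.0015). Without the arrays with high Xist its difference was 0.35 (adjusted p = 0.058). Dag1, the gene of dystroglycan, was -0.25 ± 0.10 (adjusted p = 0.060). Its groups overlapped, with 11.32, 11.48, 11.08, 11.40 and 11.39 in C57Bl/6 and 11.19, 11.32, 11.09, 10.80 and 11.01 in the double mutant. Its difference was -0.23 (adjusted p = 0.17) with the Xist term and 0.01 (adjusted p = 0.99) without the arrays with high Xist, and it passed the test without the arrays with markers of other tissue (adjusted p = 0.022). Across the 16 measured members of the complex 4 were called higher and 4 lower (median -0.06), beside 14.4% and 15.5% of all genes tested. Lama2, the laminin chain that dystroglycan binds, rose by 0.97 ± 0.14, and Aqp4, a water channel of the membrane complex, was lower (-1.002 ± 0.305), a call lost without the arrays with high Xist (-0.97, adjusted p = 0.36). Enzymes of dystroglycan glycosylation were called higher in 3 of 13 cases and lower in 6 (median -0.21). B3galnt2, Pomgnt2 and Pomt1, which build the core of the sugar chain, were -0.91 ± 0.12, -0.59 ± 0.10 and -0.42 ± 0.08, and Dpm1, a subunit of the enzyme that makes dolichol phosphate mannose, was -0.35 ± 0.12. Dpm1 lost its call without any of 3 single arrays (adjusted p = 0.060 to 0.097). Among costamere and integrin genes 11 of 24 were called higher and 4 lower (median 0.34), the latter a share near that of all genes. Itga5, a fibronectin receptor, rose by 1.20 ± 0.13, and Actn1 by 0.66 ± 0.16, while Synm, the intermediate filament protein synemin, was -0.93 ± 0.17 and Ky -1.12 ± 0.34.

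Stress and wasting genes did not move as 1 group. The metallothioneins Mt2 and Mt1 rose by 2.84 ± 0.24 and 2.39 ± 0.26. Mt2 values were 10.58, 10.21, 11.18, 10.22 and 10.12 in C57Bl/6 and 13.36, 13.20, 13.12, 13.40 and 13.46 in the double mutant, which lay close together. The ubiquitin ligases of atrophy were lower, Fbxo32 at -1.46 ± 0.42 and Trim63 at -0.96 ± 0.38 (adjusted p = 0.049), and the latter lost its call when any 1 array of either group was left out (adjusted p = 0.058 to 0.094). In that list 5 of 24 genes were called higher and 6 lower (median -0.06), beside 14.4% and 15.5% of all genes tested. Of 24 genes of the integrated and endoplasmic reticulum stress responses 12 were called higher and 2 lower (median 0.26). Atf3 rose by 1.30 ± 0.21, Pdia4 by 0.91 ± 0.14 and Asns by 0.80 ± 0.21, whereas Chac1, described above, fell. NADPH oxidase genes rose with the phagocyte markers, Cybb by 1.72 ± 0.38, Cyba by 1.45 ± 0.25 and Nox4, the form of fibroblasts and muscle, by 1.70 ± 0.18. Cybb read 9.47, 8.62, 11.16, 8.76 and 8.74 in C57Bl/6, where the marrow-bearing replicate 3 reached the double mutants (10.63, 11.52, 10.48, 11.75 and 10.97), and against that array alone it was -0.09 (adjusted p = 0.98). Hmox1, which degrades haem, rose by 1.24 ± 0.29 and was 0.17 (adjusted p = 0.95) in the same setting. In the oxidative stress list 8 of 21 were called higher and 4 lower (median 0.15). Clock genes were called lower in 7 of 16 cases and higher in none (median -0.34), among them Arntl at -0.999 ± 0.308, Nr1d1 at -0.75 ± 0.17, Rora at -0.61 ± 0.17 and Bhlhe41 at -0.57 ± 0.21. Bhlhe41 lost its call without any of 6 single arrays (adjusted p = 0.052 to 0.11). The labels give no hour of dissection. Of the cell cycle list 2 of 35 genes were called, beside 29.8% of all genes tested. They were Pttg1, described above, and Ccnd1, the G1 cyclin D1, at 0.68 ± 0.17. Of the secreted factors of muscle 4 of 14 were called higher and 6 lower, Igf1 rising by 1.07 ± 0.13 while Ostn and Mstn fell.

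Vessel, nerve and remaining marker lists were measured last. Of 21 endothelial markers 1 was called higher and 3 lower, no larger shares than the 14.4% and 15.5% of all genes tested. Higher was Cd93 at 0.52 ± 0.13. Lower were Kdr, the main VEGF receptor, at -0.52 ± 0.16, Ptprb at -0.37 ± 0.12 and Robo4 at -0.27 ± 0.10. Each of the 3 lower calls was lost without double mutant replicate 5 (adjusted p = 0.050, 0.053 and 0.066). Smooth muscle and pericyte genes were called higher in 3 of 12 cases and lower in 4, with Pdgfrb at 0.57 ± 0.09, Abcc9 at -0.75 ± 0.13, Kcnj8 at -0.46 ± 0.13 and Myh11 at -0.40 ± 0.12. Myh11 was -0.32 (adjusted p = 0.057) without C57Bl/6 replicate 4. Of 21 Schwann cell and nerve genes 3 were called, beside 29.8% of all genes tested. They were Egr2 at 0.67 ± 0.11, Pmp22 at 0.42 ± 0.12 and Pmp2 at -0.56 ± 0.22. Pmp2 lost its call without any of 8 single arrays (adjusted p = 0.056 to 0.11). Single calls were made for Alpl among bone markers (-0.96 ± 0.26), Sox9 among cartilage markers (0.45 ± 0.11) and Krt18 among mammary markers (1.10 ± 0.22), a keratin that the list of regenerating fibres also holds.

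Few microRNA genes were called. Of 296 tested, 11 were called lower and 1 higher, smaller shares than the 15.5% and 14.4% of all genes tested. The probe sets read precursor transcripts rather than mature microRNAs. In the list of microRNAs of muscle and fibrosis, array means were low, at 5.11 to 5.31 in C57Bl/6 and 4.95 to 5.20 in the double mutant. Of its 21 genes 2 were called, Mir133a-2 (-0.87 ± 0.20) and Mir133a-1 (-0.96 ± 0.34), the copies that encode miR-133a of skeletal and heart muscle. Mir133a-1 lost its call without any of 5 single arrays (adjusted p = 0.055 to 0.073). Mir133a-2 read 6.20, 6.01, 6.56, 6.18 and 5.50 in C57Bl/6 and 5.05, 5.36, 5.56, 5.06 and 5.08 in the double mutant, and the groups overlapped in 1 array. Mir181b-2 had the largest fall among microRNA genes and was chosen after its values were seen, with its neighbour Mir181a-2. It read 7.41, 7.92, 7.19, 7.72 and 7.68 in C57Bl/6 and 6.46, 6.54, 6.83, 6.18 and 6.26 in the double mutant, and fell by 1.13 ± 0.21 (adjusted p = 1.8e-05). Mir181a-2 fell by 0.46 ± 0.13 (adjusted p = 0.0056). Neither was called without the arrays with high Xist (adjusted p = 0.23 for Mir181b-2 and 0.69 for Mir181a-2). Their mature sequences are given from RefSeq on GRCm38.p6, with the seed, bases 2 to 8, in capitals, because the 2 share it.
mmu-miR-181a-5p (chr2:38852741-38852763, plus strand): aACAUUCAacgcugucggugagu
mmu-miR-181b-5p (chr2:38853845-38853868, plus strand): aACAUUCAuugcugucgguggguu

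**Figure D5:**
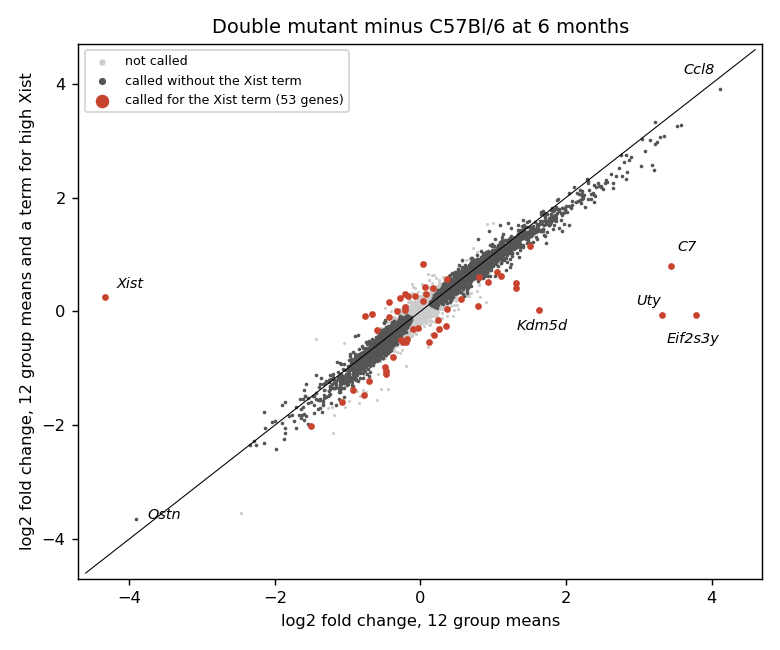
Log2 fold change of each gene in the fit of 12 group means against that with a term for high Xist, with called genes in dark grey, genes called for the Xist term in red and the line of equal values. Most genes lie near the line, whereas Xist, the Y-linked genes and C7 (3.44 against 0.81) lie away from it.

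The term for high Xist was itself called for 53 genes, 19 higher and 34 lower in arrays with high Xist, and 27 of the 53 were also called between the double mutant and C57Bl/6. Apart from Xist, which was 4.33 ± 1.11 lower in the double mutant, and Eif2s3y, Uty and Kdm5d, 3.79 ± 0.93, 3.31 ± 0.82 and 1.63 ± 0.39 higher, C7 was the 1 gene among the 24 largest changes that belonged to them. None of the 4 sex-linked genes was called once the term was in the fit. The term divides the arrays by Xist itself, and the Y-linked genes follow the same division, so this outcome was set in advance.

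A separate set of mice, 5 double mutants and 5 C57Bl/6 at 3 months, was compared in the same way. At that age 14.6% of genes were called higher and 15.5% lower, and only 1 of the 5 C57Bl/6 arrays had high Xist. All 24 named genes had the same sign at 3 months, and 23 were called, all but C7. Ostn was -3.13 ± 0.26 and Mstn -2.14 ± 0.29 at 3 months, beside -3.90 and -2.26 at 6 months. Ccl8 was 3.54 beside 4.11 and Myh3 3.44 beside 2.80. The difference of the 2 differences was tested directly. It was called higher at 6 months for 1 gene (0.00502%) and lower for 0 genes (0%) by limma. Of 19938 genes tested 889 had an unadjusted p under 0.05. This is no larger a share than that threshold gives without any difference between the ages. The 1 called gene was Nmb, which encodes the peptide neuromedin B. At 6 months it read 6.88, 6.53, 6.96, 6.85 and 7.22 in C57Bl/6 and 7.53, 7.21, 7.80, 8.0 and 7.96 in the double mutant, and at 3 months 7.01, 7.25, 6.97, 6.99 and 6.94 against 6.55, 6.87, 6.65, 6.75 and 6.73. The double mutant was above C57Bl/6 at 6 months (0.81) and below it at 3 months (-0.32 ± 0.14, adjusted p = 0.080), a change of 1.13 ± 0.20 (adjusted p = 0.013). Nmb was 1.0 (adjusted p = 0.17) with the Xist term, 1.08 (adjusted p = 0.14) without the arrays with high Xist and 1.04 to 1.25 with 1 array left out, where it lost the call without double mutant replicate 5 or C57Bl/6 replicate 2 at 6 months and without replicate 1 of the double mutant or replicate 2 of C57Bl/6 at 3 months. Imprinted growth genes were called higher in 13 of 15 cases at 3 months and 6 at 6 months, with medians of 1.02 and 0.36, but no single gene of the list passed the test of the difference. Mest was 2.52 ± 0.35 at 3 months, and its difference between ages was -1.45 ± 0.49 (adjusted p = 0.74).

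The double mutant was also compared with each single mutant at 6 months, using the same 5 double mutant arrays, so the comparisons share those arrays. Against Dmdmdx 2.53% of genes were called higher and 2.05% lower. The largest rises were in Vsig4 (2.67 ± 0.32), Ccl8 (1.38 ± 0.38, adjusted p = 0.020), Rrad (1.35 ± 0.30), a small GTPase that inhibits calcium channels, Ocel1 (1.305 ± 0.081) and Lyve1 (1.28 ± 0.24), a hyaluronan receptor of lymphatic vessels and resident macrophages. Vsig4 read 6.18, 6.27, 6.32, 6.38 and 7.13 in Dmdmdx, near the C57Bl/6 values of 5.77 to 6.66, and 8.26, 9.32, 9.58, 9.32 and 9.16 in the double mutant. Largemyd values of Vsig4 ranged from 6.44 to 9.34. Of 37 macrophage markers 3 were called higher against Dmdmdx and none lower (median 0.27), beside 2.53% and 2.05% of all genes. They were Lyve1, Mrc1 (0.78 ± 0.16) and Cd163 (0.74 ± 0.19), the scavenger receptors of resident macrophages. The last 2 were named after their values were seen. Ccl8 lost its call against Dmdmdx without double mutant replicate 4 (1.20, adjusted p = 0.084), without the arrays with high Xist (1.28, adjusted p = 0.078) and in some other settings.

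The 5 largest falls against Dmdmdx by the same rule were in Chac1, Mc5r, Pfkfb3, Plcd4 and Klhl33. Chac1 was -1.60 ± 0.37, Mc5r -1.59 ± 0.20, Pfkfb3 -1.44 ± 0.27, Plcd4 -1.38 ± 0.35 and Klhl33 -1.29 ± 0.18. Klhl33 read 9.16, 9.31, 9.28, 9.21 and 8.79 in Dmdmdx and 7.86, 7.92, 8.16, 7.57 and 7.78 in the double mutant, where the lowest Dmdmdx array lay above the highest double mutant. Plcd4, a phospholipase C, was -1.25 (adjusted p = 0.051) without double mutant replicate 4. Against Dmdmdx 6 of 23 glycolysis and glycogen genes and 6 of 22 fast fibre genes were called lower and none higher (medians -0.32 and -0.30), and 4 of 15 slow fibre genes were called higher and none lower (median 0.58). The 4 were Sln (0.80 ± 0.19), Myoz2 (0.91 ± 0.28), Atp2a2, the slow calcium pump (0.62 ± 0.19), and its inhibitor Pln (0.58 ± 0.17). In the matrix list 13 of 49 genes and in the complement list 9 of 20 were called higher and none lower (medians 0.32 and 0.52). The adipocyte list had 7 of 21 called higher and none lower (median 0.78). Its array means were 8.82 to 9.53 in Dmdmdx and 9.51 to 10.68 in the double mutant, beside 9.83 to 10.22 in C57Bl/6. All 5 Dmdmdx arrays but 1 had low Xist, so this comparison differs less in Xist than that with C57Bl/6.

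Against Largemyd 0.532% of genes were called higher and 0.813% lower, 268 in all. Of the 5 Largemyd arrays 3 had high Xist, and with the Xist term 42 genes were called. Of these arrays replicate 2 also carried lymph node markers (mean 9.78), and replicate 4 had a mean of mammary markers of 7.91, beside 6.08 to 6.27 in the double mutant. Among the largest differences Prg4 (1.70 ± 0.24), Olfr1372-ps1, an olfactory receptor pseudogene (1.505 ± 0.136), and Pttg1 (-1.51 ± 0.13) kept their calls in all settings tried. Prg4 read 12.65, 12.36, 12.21, 12.50 and 12.38 in the double mutant and 10.96, 9.99, 11.08, 10.49 and 11.11 in Largemyd, beside 11.03 to 12.15 in Dmdmdx and 8.96 to 9.98 in C57Bl/6. The double mutant was thus above all 3 other lineages without overlap. Mmp12 (1.30 ± 0.35, adjusted p = 0.044), Ms4a4a (1.24 ± 0.26), Pnpla3 (-0.95 ± 0.19), Krt19 (-0.85 ± 0.21) and Ublcp1 (-0.78 ± 0.19) lost their calls with the Xist term (adjusted p = 0.21, 0.071, 0.076, 0.31 and 0.10). Krt19 read 8.62 and 8.78 in Largemyd replicates 2 and 4, 7.24 to 7.54 in the other Largemyd arrays and 7.02 to 7.14 in the double mutant. The part of other tissue in this was not tested. Lrmda (1.10 ± 0.14) and Snord53 (-1.57 ± 0.28), a small nucleolar RNA, were not called when only the 10 arrays compared were fitted (adjusted p = 0.14 and 0.19). Lrmda did not pass the test between the double mutant and C57Bl/6 (0.07, adjusted p = 0.74). Against Largemyd 2 of 37 macrophage and 2 of 49 matrix genes were called higher and none lower (medians 0.44 and 0.06). Called lower were 3 of 21 adipocyte and 5 of 21 endothelial genes, and none of either list higher (medians -0.70 and -0.34). In the fast fibre and glycolysis lists none was called in either direction (medians 0.15 and 0.10), beside 0.532% and 0.813% of all genes. The comparison with Dmdmdx, with 6 each, called 913 genes in all in place of 268. The counts of the 2 comparisons therefore cannot be set against each other. A difference between the single mutants was not tested.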

How the data were processed

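Whole calf muscle was measured on Affymetrix Mouse Gene 1.0 ST arrays, 1 per mouse. The deposited log2 values were made by the authors with RMA in Affymetrix Expression Console, per the submitters' processing notes. Contrasts were taken within an age, since array means ran from 7.19 to 7.27 in the mice of 3 months and from 7.32 to 7.37 in those of 6 months. Of 35556 probe sets 21789 had 1 gene symbol, 1621 several and 12146 none in the platform table. The probe set with the highest mean stood for each of 19938 genes. limma 3.58.1 (R 4.3.3) fitted 12 group means over 60 arrays, with Benjamini-Hochberg adjustment over all genes and a threshold of 0.05. The fit was tested on simulated data. In it, 80.6%, 89.6% and 98.5% of genes changed by 0.5, 1 and 2 log2 units were recovered, and 12 unchanged genes were called. It changed 200 genes and used independent normal noise with 1 spread per gene in all groups. No simulated array stood apart in Xist or marrow markers, so these rates need not hold for the arrays compared. Named were the 12 largest called rises and falls without overlap, leaving out predicted and sex-linked genes, 5 each against the single mutants, and up to 4 called genes of each of 46 lists. Members and lists were chosen with earlier results of these data known. Replicate numbers follow accession order. The labels count 5 mice per group. The p-values rest on the spread between mice within a group, pooled over all 12 groups of the series. Alternatives changed the arrays fitted, the scaling, the weights, the low-value filter, the probe set rule and terms for Xist and marker levels. One planned gene is not reported here.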

Additional observations from a re-analysis of the deposited data

Results flagged for a closer look

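Among 146 groups of 5 arrays, 25 held an array whose gap to the nearest other array exceeded Dixon's 95% value of 0.71 of the range, and chance marks about 1 in 20 groups. C57Bl/6 replicate 3, the control with low Xist and high marrow markers, stood apart for C7 (9.60, others 6.46 to 7.04), Glipr1 (8.08, others 6.61 to 7.02), Ostn (9.95, others 11.07 to 11.48) and Nos1 (9.77, others 10.06 to 10.17). It also stood apart in the list means of TGF-beta signalling (9.27), fibro-adipogenic progenitors (9.08), complement (8.39), T and natural killer cells (7.08), mast cells and eosinophils (7.40), lymph node (7.86) and sex-linked genes (7.91).

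Double mutant replicate 4 stood apart for Mettl11b (6.16, others 6.89 to 7.12) and in 9 list means. It was highest for marrow (10.87, others 6.84 to 7.01), erythroid (9.73), lymph node (8.45), bone (7.45), T and natural killer cell (7.43) and mast cell and eosinophil markers (7.82). It was lowest for slow fibre (10.20), calcium handling (10.30) and neuromuscular junction genes (8.74). C57Bl/6 replicate 1 was highest for matrix (9.57, others 9.30 to 9.38) and skin genes (7.49), replicate 2 for adipocyte genes (10.22, others 9.83 to 9.86), and replicate 5 lowest for Mc5r (8.82, others 9.27 to 9.33).

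For Nmb the difference between double mutant and C57Bl/6 was 1.13 higher at 6 months than at 3 months (limma adjusted p = 0.013).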

How the results depend on the processing

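Of 154 genes named for the double mutant against C57Bl/6, 86 kept direction and call under all 23 settings, and 15 lost the call when 1 array was left out. The count of 5945 called genes was 1799 without the arrays with high Xist and 5010 to 6052 with 1 array left out. Without those arrays 64 named genes lost the call, Dag1 was 0.01 and Cybb -0.09, Eif2s3y -0.12 and Kdm5d -0.05. With the Xist term Xist was 0.26, Eif2s3y -0.06 and Uty -0.06. With marker covariates added, Xist was 0.32 and Uty -0.0016, and with the Xist term over the 20 arrays of 6 months Xist was 0.15 and Eif2s3y -0.07. Against Dmdmdx 913 genes became 3019 with array weights, 1457 with covariates and 590 to 957 with 1 array left out (590 without double mutant replicate 5, 592 without Dmdmdx replicate 4). Against Largemyd 268 became 8 with only the compared arrays, 746 with weights, 42 with the Xist term, 16 without the arrays with high Xist, 83 with covariates, 17 with the Xist term over 6 months and 71 to 346 with 1 array left out (71 without Largemyd replicate 2; 139, 109 and 140 without double mutant replicates 1, 2 and 5). The 1 gene differing between ages became 2 with the compared ages, 4 with the compared groups, 123 with weights, 0 with the Xist term, 30 without the arrays with high Xist, 4 without those with other tissue, 5 without C57Bl/6 replicate 1 as well, 0 with covariates and 0 to 4 with 1 array left out. The cause was not tested. No paired analysis was possible because replicate numbers follow accession order. The number of arrays limits the precision.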

Other observations

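Genes called between the double mutant and Largemyd were counted on chromosome 11, a count chosen after the values were seen. Of 1566 genes tested there 35 were called (2.23%), beside 268 of 19938 over all chromosomes (1.34%). With the Xist term the counts were 8 (0.51%) and 42 (0.21%).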
